A study of Mus musculus with 60 samples.

Results

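The liver of Gipr floxed mice was compared between animals given the conjugate mGIPR-Ab/P1 and animals given vehicle. The comparison holds 10 of the 60 samples of the series, namely the 5 liver libraries labelled Giprfl/fl with mGIPR-Ab/P1 and the 5 labelled Giprfl/fl with vehicle. The 10 libraries were taken from these labels, without use of any measured value. The series covers liver and inguinal white adipose tissue of mouse lines with a floxed Gipr or a floxed Glp1r gene. mGIPR-Ab/P1 is a peptide-antibody conjugate, an antibody against the mouse GIP receptor that carries a GLP-1 peptide. All mice of the series were diet-induced obese (DIO), so both groups share the obesity, and both carry Gipr alleles flanked by loxP sites. No Cre driver is named in the labels of these 10 libraries. The same liver table holds 5 libraries of GiprSyn-/- mice given vehicle, a Gipr knockout whose label names Syn, which entered the fit for a common estimate of the spread. The sources used here do not give sex, age, diet, dose, route or length of treatment, nor whether feeding was matched between the groups. The replicates are labelled as biological, and each was taken as 1 sample.

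GIP and GLP-1 are gut hormones released after a meal, and their receptors are found mainly on pancreatic islet cells and in the brain, with little or none on hepatocytes. In obesity the hepatocyte stores triglyceride in lipid droplets and expresses genes of fatty acid uptake, droplet coating and remodelling that a lean liver keeps low. Liver is also a tissue with strong sex differences, since pulsatile growth hormone, acting through STAT5b, maintains a male-typical set of genes in mice that is reduced by obesity.

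The windows upstream of a few called genes are shown first, as examples that do not stand for the called genes as a set. Each window holds the 250 bases before the annotated start in RefSeq (build GRCm38.p6), written along the gene, with matches to 3 motifs in capitals. The motifs were the palindromic STAT letters TTCNNNGAA, the antioxidant response letters TGACNNNGC and the TATA letters TATAAA, searched on both strands. Hsd3b5 had the largest rise and is shown because it holds no match. Keg1, a gene that rose far less than Hsd3b5, holds 2 STAT matches that begin 173 and 107 bases before the start. It also holds an antioxidant response match on the other strand 185 bases before the start. Gsta1, a gene that fell, holds a STAT match 162 bases before the start. Cyp8b1, which fell, holds a TATA match 31 bases before the start and an antioxidant response match on the other strand 151 bases before it. Tubb2a, which also fell, holds a TATA match 29 bases before the start.
Hsd3b5, chr3:98645535-98645784, minus strand: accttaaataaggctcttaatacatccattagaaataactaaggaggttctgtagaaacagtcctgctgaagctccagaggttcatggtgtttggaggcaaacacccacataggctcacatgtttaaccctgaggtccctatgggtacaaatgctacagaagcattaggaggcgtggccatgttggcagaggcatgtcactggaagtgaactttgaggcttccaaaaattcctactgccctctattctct
Keg1, chr19:12695540-12695789, plus strand: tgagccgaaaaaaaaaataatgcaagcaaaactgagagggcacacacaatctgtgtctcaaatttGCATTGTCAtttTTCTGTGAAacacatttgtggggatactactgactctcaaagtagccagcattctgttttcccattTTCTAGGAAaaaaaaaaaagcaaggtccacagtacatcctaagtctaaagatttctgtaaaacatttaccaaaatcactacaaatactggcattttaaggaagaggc
Gsta1, chr9:78230419-78230668, plus strand: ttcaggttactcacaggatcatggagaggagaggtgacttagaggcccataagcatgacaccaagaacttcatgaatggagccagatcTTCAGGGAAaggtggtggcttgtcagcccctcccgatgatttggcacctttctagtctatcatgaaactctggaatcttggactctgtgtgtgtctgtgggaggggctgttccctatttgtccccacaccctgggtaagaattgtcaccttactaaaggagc
Cyp8b1, chr9:121916306-121916555, minus strand: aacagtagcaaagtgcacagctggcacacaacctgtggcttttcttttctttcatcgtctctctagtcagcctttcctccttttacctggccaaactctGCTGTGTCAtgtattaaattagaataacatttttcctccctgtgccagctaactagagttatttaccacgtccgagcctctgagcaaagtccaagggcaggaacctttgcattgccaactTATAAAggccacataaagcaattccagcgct
Tubb2a, chr13:34078009-34078258, minus strand: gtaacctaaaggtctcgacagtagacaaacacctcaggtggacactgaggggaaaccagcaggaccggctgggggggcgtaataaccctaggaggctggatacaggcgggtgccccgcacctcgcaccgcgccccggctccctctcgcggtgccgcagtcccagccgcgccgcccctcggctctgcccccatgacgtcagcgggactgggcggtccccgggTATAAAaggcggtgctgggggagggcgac

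Of the 131 genes that rose, 91 had a window, and 12.1% of these held the STAT letters. Among the 355 genes that fell, 280 had a window, and the share was 5.36%. Among the tested genes with a window (8672 of 11201) it was 7.16%, and among all 32851 windows of the same length 7.02%. The antioxidant response letters were in 11% of genes with a window that rose, 9.64% that fell and 14.1% that were tested. Of all windows 10.2% held them. The TATA letters were in 8.79%, 10.7%, 8.48% and 12.4% of the same 4 sets. In the gene sets a gene counts where at least 1 of its windows holds the letters. The share of all windows is counted per window, so it is not on the same unit. Of the 11 called glutathione transferase and NRF2 target genes described below, 1 held the antioxidant response letters. Of the 7 called male-biased genes with a window, 0 held the STAT letters. A match describes the letters of the window only.

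Levels were FPKM, fragment counts scaled to transcript length and library depth. All log2 fold changes below are conjugate minus vehicle on the scale log2(FPKM + 1), which understates changes of genes near the floor, and are given with the standard error of the limma model. A gene was called where its p, adjusted by Benjamini-Hochberg over the 11201 genes tested, was below 0.05, and "rose" and "fell" are used for called genes only. With the conjugate 131 genes rose, 1.17% of those tested, and 355 fell, 3.17%. The other 10715 did not pass, and the median log2 fold change over all genes tested was -0.03. Of the 486 called genes 228 changed at least 1.5-fold, 2.04% of the genes tested. For 552 genes, 4.93%, the vehicle and the conjugate libraries did not overlap. With median-of-ratios scaling 166 rose and 278 fell, and with quantile normalization 181 rose and 255 fell, so the share of rises among the calls went from 27.0% to 37.4% and 41.5%. Values listed per library below run from replicate 1 to replicate 5.

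The livers differed in several measures beside the treatment. The estimated depth was 37.4 to 57.1 M (mega) fragments over the 10 libraries. Transcripts of 24 pancreatic acinar genes made up 0.0381, 1.1, 0.00249, 0.105 and 1.18% of the summed FPKM in the vehicle libraries and 0.00712, 0.68, 0.0897, 2.22 and 0.0213% in the conjugate libraries, so pancreatic transcripts were above 0.5% in vehicle 2 and 5 and in conjugate 2 and 4. The score of red blood cell genes, a mean of log2(FPKM + 1), was 4.63, 4.86, 5.08, 4.67 and 4.8 with vehicle and 3.81, 3.98, 3.92, 4.18 and 4.71 with the conjugate (exact two-sided permutation p = 0.0238, adjusted over 20 measures 0.238). Summed FPKM of that list ran from 994 to 1680 with vehicle and from 406 to 1171 with the conjugate, and 3 of its 5 tested members fell (Hbb-bt, Hbb-bs and Hba-a2, all globin genes, with a list median of -1.22). The call of Hba-a2 was lost without vehicle 1, 2, 3, 4 or 5 or conjugate 1, 2, 3 or 4 (adjusted p 0.0546 to 0.122). Liver as the labelled tissue showed in 9 hepatocyte markers, which summed to 54622 to 65288 FPKM with vehicle and to 68067 to 71107 FPKM with the conjugate. The hepatocyte score was 11.1, 11.1, 10.8, 11 and 11.1 with vehicle and 11.1, 11.3, 11.3, 11.3 and 11.3 with the conjugate (exact permutation p = 0.0238, adjusted 0.238). The smallest p that the 252 assignments of 5 against 5 libraries allow is 0.00794, and 0 of the 20 measures passed after adjustment. A single measure at that smallest p could not have passed alone after adjustment over 20. The absence of calls therefore does not show that the groups were alike in these measures. In bulk tissue, fewer cells of a type and less RNA per cell cannot be told apart.

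**Figure D1:**
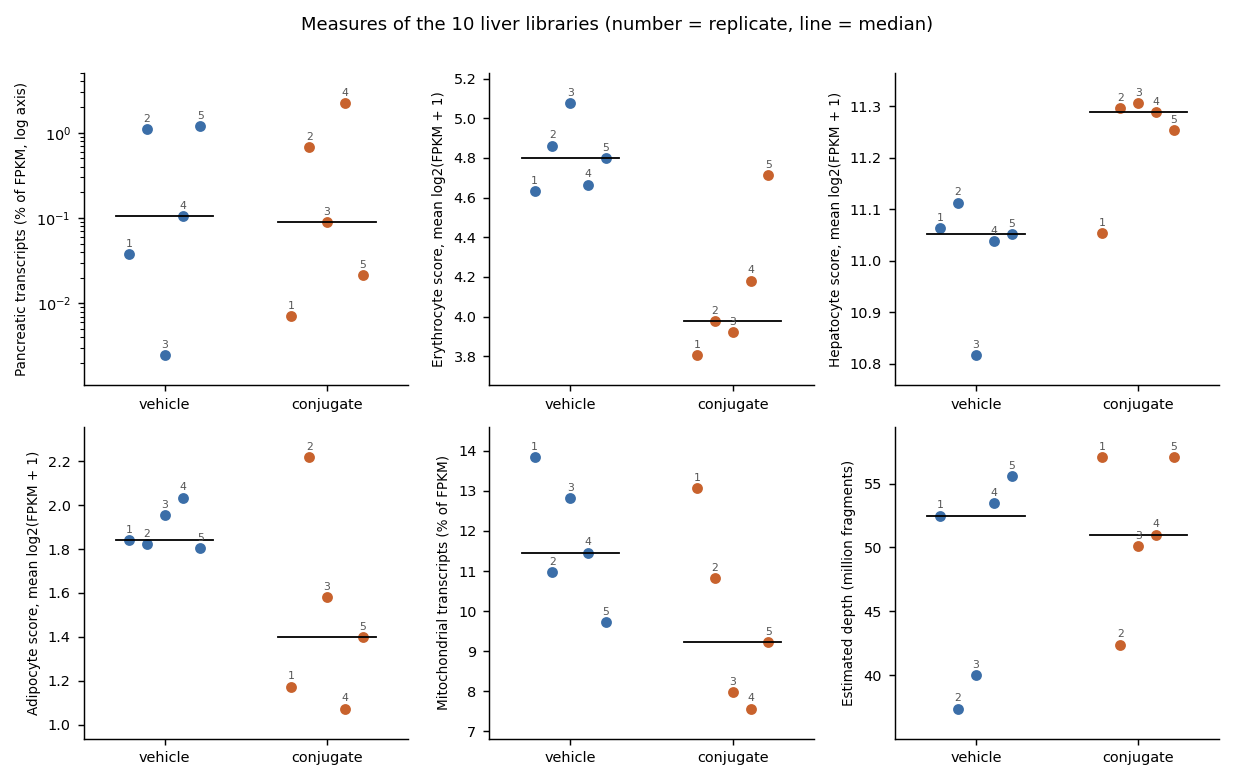
The plot shows 6 measures of the 5 vehicle and 5 conjugate liver libraries, 1 point per library with its replicate number and a line at the group median; the pancreatic share is on a log axis and scores are means of log2(FPKM + 1). Pancreatic transcripts run from 0.00249% to 1.18% with vehicle and from 0.00712% to 2.22% with the conjugate, and the erythrocyte score of conjugate 5 is among those of the vehicle libraries.

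Calls depended on which libraries were in the fit, while the directions of the 486 called genes held when libraries were left out. That was largely fixed in advance, since these genes were called on the same libraries. Where groups do not overlap, leaving out libraries cannot turn the direction. Without each library in turn the fit called 157 to 1042 genes, fewest without conjugate 4 (33 higher, 124 lower) and most without conjugate 5 (356 higher, 686 lower), and all 486 genes kept their direction. The counts were 170, 175, 198, 232 and 235 without vehicle 3, vehicle 4, conjugate 2, vehicle 2 and conjugate 3, and 718 without conjugate 1. Without vehicle 2 and 5, conjugate 2 and 4 and knockout 1, the 5 libraries of the fit with over 0.5% pancreatic transcripts, a choice made after the data were seen that leaves 3 against 3, 0 genes were called and 1028 had an unadjusted p under 0.05 with limma, while all 486 kept their direction with a median 0.97 of the full fold change and standard errors 1.40 times as large. With the erythrocyte score as a term 0 genes were called and 932 had an unadjusted p under 0.05 with limma; 483 of the 486 kept their direction, at a median 0.66 of the fold change, and the 3 groups of the table accounted for 63.1% of the variance of that score. With the pancreatic score as a term 170 rose and 469 fell, and all 486 genes remained called. The part of blood RNA in the results was not tested beyond that fit.

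The gene lists here and below were chosen with earlier results of these data known. Their shares beside those of all genes are therefore descriptions and not tests. Genes of the lipid droplet fell where they passed. Of 27 tested genes of lipid droplets and triglyceride storage, 4 fell, 0 rose and 23 did not pass, and 3 more were below the filter. The share of falls was 14.8%, against 3.17% among all genes tested. Their median log2 fold change was -0.37, against -0.03 over all genes tested, and 24 of the 27 had a negative value. Without the pancreas-rich libraries the median was -0.39.

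Cidec, which encodes a protein that fuses lipid droplets, stood at 19.5, 16.6, 72.5, 61.3 and 13.8 FPKM in the vehicle libraries and at 3.56, 3.01, 6.66, 1.24 and 6.95 FPKM in the conjugate libraries (log2 fold change -2.65 ± 0.46, adjusted p = 0.00689). Every conjugate library lay below every vehicle library, and vehicle 3 and 4 were far above the other vehicle livers. For the genes named here as largest changes, groups that do not overlap were a condition of the choice. Mogat1, an acyltransferase gene of glyceride synthesis, stood at 4.85, 4.52, 9.15, 6.97 and 2.9 FPKM with vehicle and at 1.52, 0.855, 0.238, 0.575 and 1.37 FPKM with the conjugate (log2 fold change -1.78 ± 0.25, adjusted p = 0.00238). Plin2, the main droplet coat of hepatocytes, was 380.5, 422, 577, 683 and 400.5 FPKM with vehicle and 273, 206, 249, 202 and 245 FPKM with the conjugate (log2 fold change -1.04 ± 0.16, adjusted p = 0.00362). Again vehicle 3 and 4 were the highest livers, and the groups did not overlap for either gene. Agpat2, an acyltransferase of phosphatidic acid synthesis, went from 123 ± 12.3 to 78.8 ± 28.4 FPKM (SD, n = 5 each), with conjugate 5 inside the vehicle range. Its call was lost without vehicle 2, 3, 4 or 5 or conjugate 2, 3 or 4 (adjusted p 0.0566 to 0.0972). With the erythrocyte score as a term the log2 fold change was -2.13 ± 0.75 for Cidec, -1.52 ± 0.41 for Mogat1 and -0.95 ± 0.27 for Plin2, none of them called.

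Of 13 genes of fatty acid uptake and binding, 1 fell and 12 did not pass (7.69% called, near 4.34% over all genes, median -0.26). That gene was Cd36, the scavenger receptor that takes up fatty acids, at 71.6, 59.5, 118, 96.6 and 63.6 FPKM with vehicle and 40.4, 26, 33.5, 20 and 39.3 FPKM with the conjugate (log2 fold change -1.33 ± 0.22, adjusted p = 0.00519). The highest conjugate library was below the lowest vehicle library.

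A broader list of hepatocyte genes that are often raised in fatty mouse liver held 11 called falls among 30 tested members, with 0 rises, 19 not passing and 4 below the filter. The share called was 36.7%, against 4.34% of all genes tested. The median log2 fold change of the list was -0.83, with 29 of 30 values negative. Without the pancreas-rich libraries the median was -0.82. Cidec, Cd36 and Mogat1 are also on this list. Tubb2a, a beta-tubulin gene, was 56.1, 41, 120.5, 72.7 and 31.2 FPKM with vehicle and 5.4, 7.64, 17.5, 10.4 and 17.7 FPKM with the conjugate (log2 fold change -2.33 ± 0.35, adjusted p = 0.00352). All conjugate livers were below all vehicle livers, and the vehicle livers spread over a wider range of FPKM. Anxa2 and Anxa5, genes of calcium-dependent membrane-binding proteins, fell by 1.29 and 1.15 on the log2 scale. Krt8, a keratin of hepatocyte filaments, went from 129.9 ± 29 to 75.7 ± 25 FPKM with overlapping groups (log2 fold change -0.80 ± 0.19, adjusted p = 0.033). Single libraries decided the calls, which were lost for Anxa2 without vehicle 4 or conjugate 4 (adjusted p 0.0534 to 0.0612) and Krt8 without vehicle 2, 3, 4 or 5 or conjugate 2, 3 or 4 (adjusted p 0.0546 to 0.0914). With the erythrocyte score as a term Tubb2a had -1.43 ± 0.51.

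Of 23 genes of collagens and extracellular matrix 1 fell and 22 did not pass (median -0.27), a share of 4.35% near the 3.17% of falls among all genes. It was Col15a1, a basement membrane collagen, from 1.76 ± 0.422 to 0.608 ± 0.228 FPKM (log2 fold change -0.78 ± 0.12, adjusted p = 0.00352).

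Other large falls were in genes outside these lists. S100a10, the partner of annexin A2, was 112, 152, 182, 133 and 115 FPKM with vehicle and 57.4, 37.2, 22.2, 25 and 63.9 FPKM with the conjugate (log2 fold change -1.83 ± 0.25, adjusted p = 0.00213). Lgals1, which encodes galectin-1, was 72.9, 92.4, 150.1, 124 and 60.2 FPKM with vehicle and 28.5, 22.9, 23.2, 14.7 and 36.5 FPKM with the conjugate (log2 fold change -1.92 ± 0.28, adjusted p = 0.00331). In both genes conjugate 1 and 5 were the highest of their group, still below each vehicle liver. Aqp8, a water channel of hepatocytes, went from 135 ± 26.7 to 41 ± 24.4 FPKM (log2 fold change -1.91 ± 0.34, adjusted p = 0.0079). H2-Q1, a class I histocompatibility gene whose reads may be shared with its close relatives, went from 9.72 ± 5.26 to 1.36 ± 1.27 FPKM (log2 fold change -2.22 ± 0.34, adjusted p = 0.00352), with vehicle 3 the highest liver. BC049987 was 21.9, 17.9, 22.2, 16.7 and 11.7 FPKM with vehicle and 5.78, 1.07, 0.594, 0.763 and 5.5 FPKM with the conjugate (log2 fold change -2.62 ± 0.41, adjusted p = 0.00359).

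**Figure D2:**
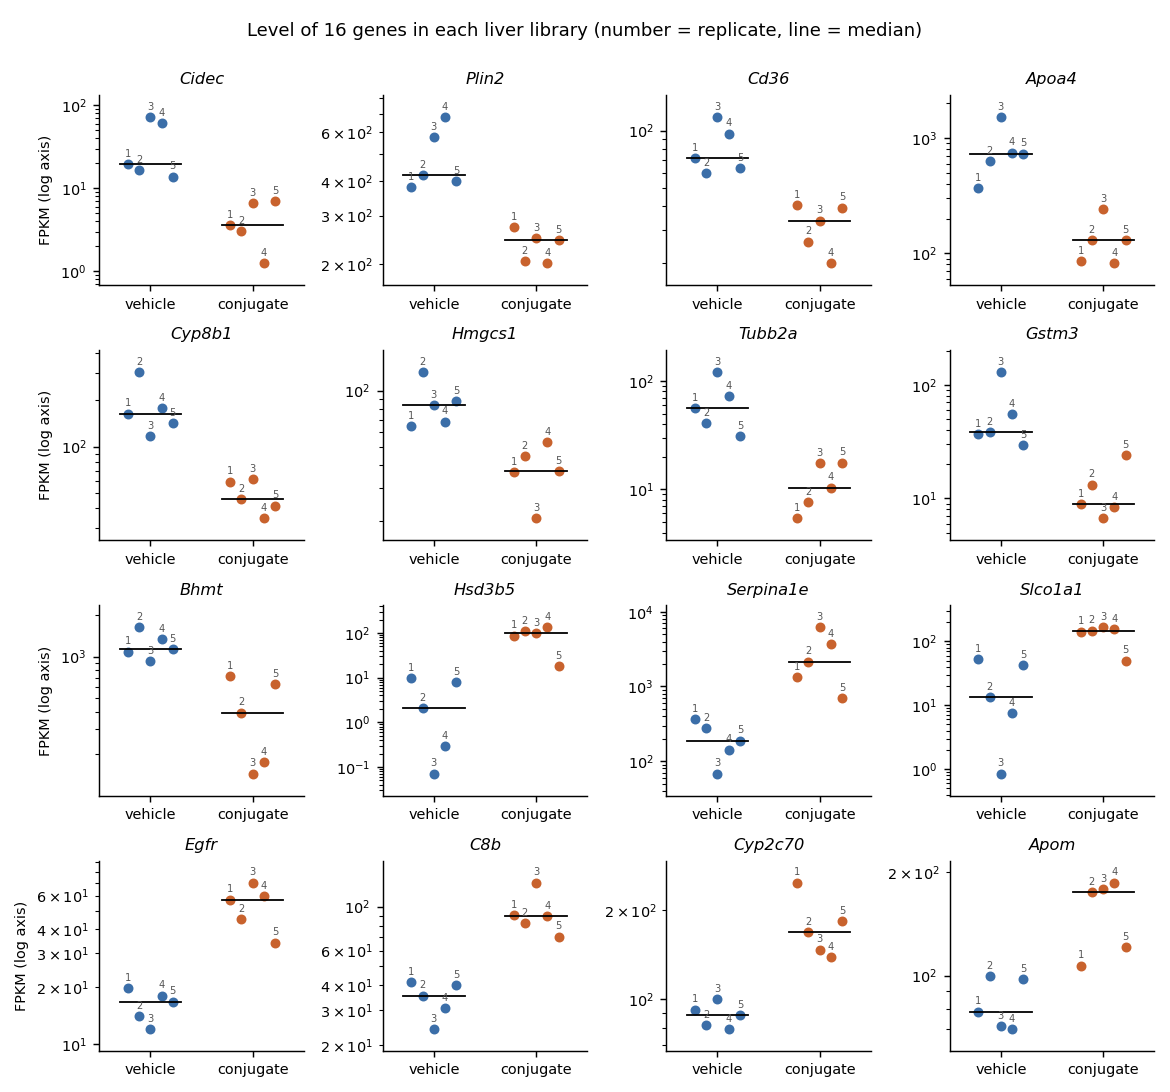
FPKM of 16 genes in each liver library, on log axes, 1 point per library with its replicate number and a line at the group median. For 15 of the 16 genes the vehicle and conjugate libraries do not overlap, and for Slco1a1 vehicle 1 lies above conjugate 5. The 16 were picked from the named genes, and for the largest changes among these separate groups were a condition of the choice. Among all genes tested 552 (4.93%) did not overlap.

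Apolipoprotein genes went both ways. Of 23 tested genes of apolipoproteins and lipoprotein remodelling, 2 fell, 1 rose and 20 did not pass. Their median was -0.14, and 13% were called, against 4.34% of all genes tested. Apoa4, an apolipoprotein of triglyceride-rich particles that fatty liver makes in excess, was 367, 626, 1521, 745 and 733 FPKM with vehicle and 85.3, 129, 243, 81.8 and 130.2 FPKM with the conjugate (log2 fold change -2.53 ± 0.32, adjusted p = 0.00213). The conjugate livers were all lower, and vehicle 3 was the highest of all. Apoc2, the cofactor of lipoprotein lipase, was 446, 559.7, 846, 591 and 493 FPKM with vehicle and 224, 246, 392, 206 and 349 FPKM with the conjugate (log2 fold change -1.06 ± 0.19, adjusted p = 0.0079). Apom, the carrier of sphingosine phosphate on HDL, moved the other way, from 78.6, 99.9, 71.5, 70 and 97.6 FPKM with vehicle to 107, 176, 179, 187 and 121 FPKM with the conjugate (log2 fold change 0.85 ± 0.16, adjusted p = 0.012). Conjugate 1 and 5 were the lowest of their group for Apom, close above the highest vehicle livers.

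Bile acid genes also split. Of 27 tested genes of bile acid synthesis and transport, 4 fell, 3 rose and 20 did not pass, and the median was -0.02. The share called was 25.9%, against 4.34% of all genes tested. Cyp8b1, the hydroxylase needed to make cholic acid, was 163, 302, 117, 177 and 141 FPKM with vehicle and 59.5, 46.2, 62.1, 34.5 and 41.7 FPKM with the conjugate (log2 fold change -1.82 ± 0.22, adjusted p = 0.00213). The highest conjugate liver was below the lowest vehicle liver, and with the erythrocyte term the log2 fold change was -2.21 ± 0.35. Cyp2c70, which makes muricholic acids in mice, was 92, 81.8, 99.6, 79.3 and 88.4 FPKM with vehicle and 247, 168, 147, 138 and 183 FPKM with the conjugate (log2 fold change 0.97 ± 0.17, adjusted p = 0.00628). Its conjugate livers were all above its vehicle livers, conjugate 1 the highest. Slco1a1, an organic anion uptake transporter that is also male-biased, was 52.4, 13.5, 0.851, 7.59 and 42.4 FPKM with vehicle and 142, 147, 165, 155 and 49.8 FPKM with the conjugate (log2 fold change 3.13 ± 0.70, adjusted p = 0.0234). Here the groups overlapped, since vehicle 1 exceeded conjugate 5, and the other conjugate livers lay close together. Cyp7b1, the oxysterol hydroxylase of the alternative bile acid route, was 29.9, 24.9, 7.24, 17.6 and 27.2 FPKM with vehicle and 55.5, 54.7, 50.1, 65.8 and 25.2 FPKM with the conjugate (log2 fold change 1.27 ± 0.32, adjusted p = 0.0393), and conjugate 5 again lay among the vehicle livers. Among exporters, Abcb4, the phospholipid flippase of the bile canaliculus, fell by 0.48 on the log2 scale. Abcc3, an exporter into blood, fell by 0.57 and Abcb1a, a drug exporter, fell by 0.79. Calls were lost for Slco1a1 without vehicle 2 or 4 or conjugate 2, 3 or 4 (adjusted p 0.052 to 0.0693), for Cyp7b1 without vehicle 2, 3 or 4 or conjugate 1, 2, 3 or 4 (adjusted p 0.0513 to 0.11) and for Abcb1a without vehicle 2, 3 or 4 or conjugate 2, 3 or 4 (adjusted p 0.0595 to 0.118).

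Few genes of fat and sterol making passed. Of 23 fatty acid synthesis genes, 1 fell and 22 did not pass, which is 4.35%, close to the 3.17% of falls among all genes, although 20 had negative values and the median was -0.35. It was Elovl5, an elongase of polyunsaturated fatty acids, at 239, 242, 384, 268 and 185 FPKM with vehicle and 149.9, 85.4, 95.3, 78 and 151 FPKM with the conjugate (log2 fold change -1.24 ± 0.23, adjusted p = 0.0101). All conjugate livers were lower than all vehicle livers. Of 26 genes of cholesterol synthesis and uptake, 2 fell and 24 did not pass (7.69% called, near 4.34% over all genes, median -0.24). Hmgcs1, which makes HMG-CoA for sterol synthesis, was 64.7, 126, 84, 68.3 and 88.2 FPKM with vehicle and 36.8, 44.7, 20.7, 52.8 and 37 FPKM with the conjugate (log2 fold change -1.17 ± 0.24, adjusted p = 0.0159). Insig2, which retains the sterol sensor in the endoplasmic reticulum, was 64.8, 65.3, 78.2, 74 and 60.9 FPKM with vehicle and 46.5, 29.8, 29.3, 26.2 and 34 FPKM with the conjugate (log2 fold change -1.05 ± 0.17, adjusted p = 0.00397). Neither gene overlapped between the groups.

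Genes of fatty acid oxidation fell where they passed. Of the 40 tested genes that burn fatty acids or make ketone bodies, 5 fell and 35 did not pass, with a median of -0.28. The share called was 12.5%, against 4.34% of all genes tested. Acadm, the medium-chain acyl-CoA dehydrogenase, was 237, 243, 233, 258 and 255 FPKM with vehicle and 196, 201, 192, 182 and 179 FPKM with the conjugate (log2 fold change -0.37 ± 0.08, adjusted p = 0.0162). Cpt2, the inner carnitine transferase of mitochondria, went from 66.5 ± 5.55 to 52 ± 2.42 FPKM (log2 fold change -0.35 ± 0.07, adjusted p = 0.0176) and Hsd17b4, a peroxisomal oxidation enzyme, from 223 ± 14.9 to 169 ± 11.1 FPKM (log2 fold change -0.39 ± 0.08, adjusted p = 0.0132). These small falls came with little spread within groups, and the groups did not overlap. Acot2, a mitochondrial acyl-CoA thioesterase, went from 6.48 ± 2.68 to 2.93 ± 0.865 FPKM with overlapping groups (log2 fold change -0.87 ± 0.23, adjusted p = 0.0442). With median-of-ratios scaling the list held 1 called fall and with quantile normalization 3. Calls were lost for Acot2 without vehicle 3, 4 or 5 or conjugate 1, 2, 3 or 4 (adjusted p 0.0575 to 0.114), Acadm without vehicle 4 or conjugate 4 (adjusted p 0.0533 to 0.0542) and Cpt2 without vehicle 4 (adjusted p 0.0549).

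**Figure D3:**
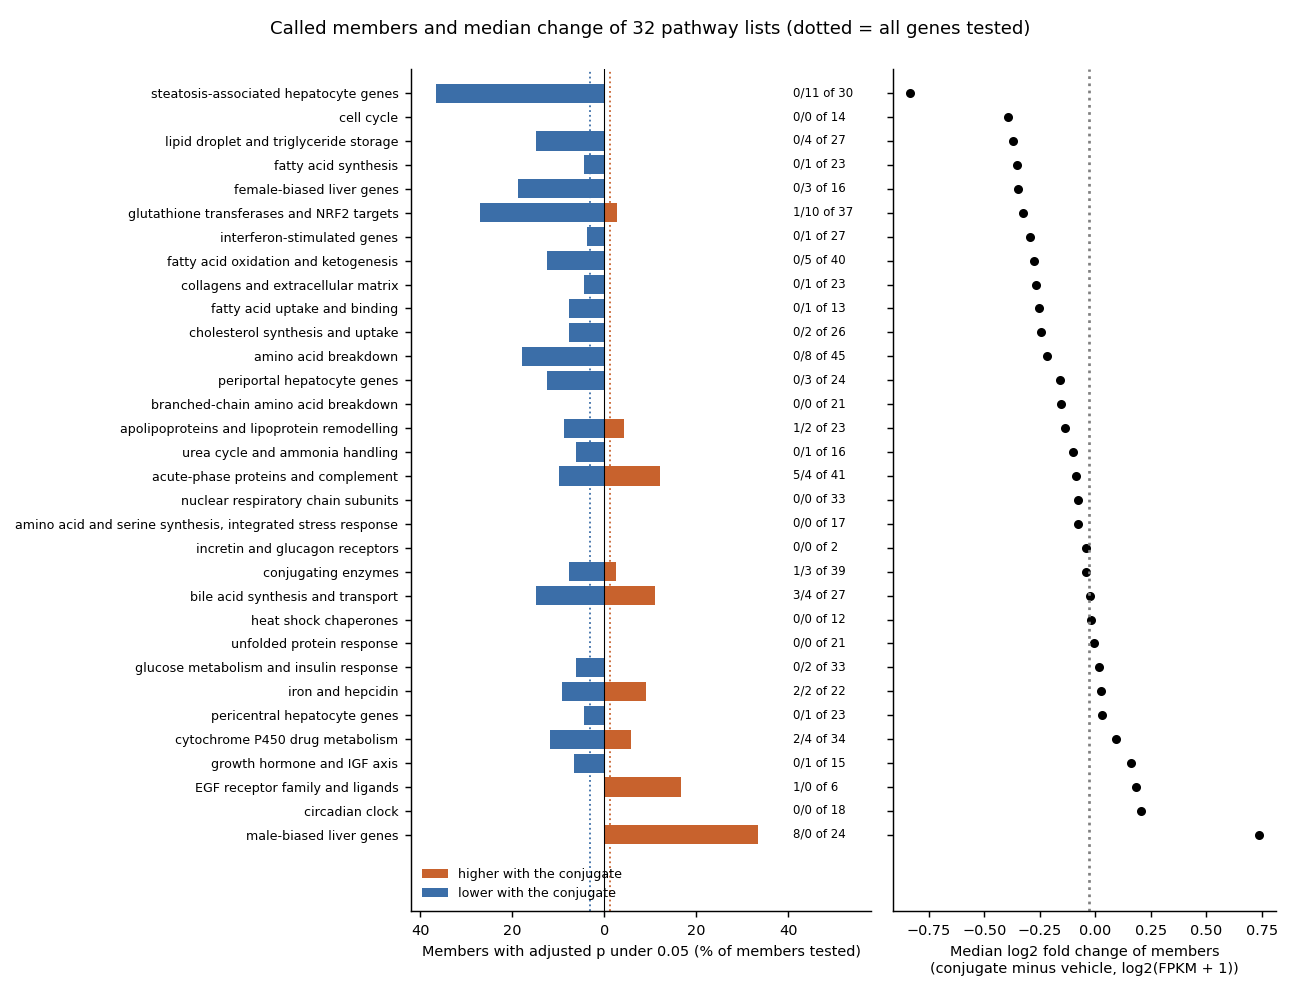
Left, the share of tested members of each of 32 pathway lists that rose (orange, right) or fell (blue, left), with the counts higher/lower of tested beside it; right, the median log2 fold change of the members. Dotted lines mark all genes tested (1.17% higher, 3.17% lower, median -0.03); male-biased genes (8 of 24 higher) and steatosis-associated genes (11 of 30 lower) lie at the ends.

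Male-typical liver genes, a list chosen like the others with earlier results of these data known, rose where they passed. Of 24 tested male-biased genes 8 rose, 0 fell and 16 did not pass, a share of rises of 33.3% against 1.17% among all genes tested, and their median log2 fold change was 0.74, with 22 of 24 positive. Hsd3b5, whose steroid dehydrogenase is typical of the male mouse liver, was 9.92, 2.08, 0.0709, 0.289 and 7.91 FPKM with vehicle and 87.1, 112, 101, 133 and 17.8 FPKM with the conjugate (log2 fold change 4.51 ± 0.67, adjusted p = 0.00352). The groups did not overlap, but conjugate 5 stood far below the other conjugate livers and vehicle 1 and 5 well above the other vehicle livers. Serpina1e, an alpha-1-antitrypsin paralog, was 366, 274, 68.1, 143 and 188 FPKM with vehicle and 1324, 2159, 6184, 3680.4 and 706 FPKM with the conjugate (log2 fold change 3.58 ± 0.52, adjusted p = 0.00322). Its nearly identical paralogs share reads, so the split between them rests on the authors' counting. Mup11, of the major urinary protein family with the same limit, was 1654, 3845, 285, 926 and 1715 FPKM with vehicle and 7256, 7634, 4934, 8370.2 and 2296 FPKM with the conjugate (log2 fold change 2.17 ± 0.55, adjusted p = 0.0413). Vehicle 2 exceeded conjugate 5 for Mup11, so the groups overlapped.

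The other called members of the list were Egfr, C6, Cyp7b1, Slco1a1 and Gstp1, the last a glutathione transferase that went from 571 ± 69.4 to 1043 ± 313 FPKM (log2 fold change 0.82 ± 0.19, adjusted p = 0.0294). As a mean of log2(FPKM + 1) over the 24 tested members, the male-biased level was 6.53, 6.39, 4.81, 5.78 and 6.28 in the vehicle livers and 7.35, 7.35, 7.18, 7.43 and 6.39 in the conjugate livers. Conjugate 5 lay inside the vehicle range, below vehicle 1, and vehicle 3 was the lowest liver. Without conjugate 5 the list had 9 called rises and without the pancreas-rich libraries a median of 0.72 with 0 calls. With the erythrocyte score as a term the log2 fold change was 2.59 ± 0.93 for Hsd3b5 and 2.22 ± 0.74 for Serpina1e. The call of Mup11 was lost without vehicle 1, 3, 4 or 5 or conjugate 1, 2, 3 or 4 (adjusted p 0.0537 to 0.113), and that of Gstp1 without vehicle 3, 4 or 5 or conjugate 2, 3 or 4 (adjusted p 0.0555 to 0.0879).

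Female-typical genes fell where they passed. Of 16 tested female-biased genes 3 fell, 0 rose and 13 did not pass (median -0.35), and 15 others were below the filter. The share called was 18.8%, against 4.34% of all genes tested. Cyp17a1, a steroid hydroxylase, was 9.21, 48.1, 33.8, 21.4 and 18.2 FPKM with vehicle and 5.03, 7.97, 4.78, 7.66 and 7.29 FPKM with the conjugate (log2 fold change -1.68 ± 0.31, adjusted p = 0.0101). Slc22a27, an organic anion transporter gene, was 6.12, 6.1, 16, 7.24 and 4.94 FPKM with vehicle and 2.5, 1.86, 0.538, 1.24 and 3.24 FPKM with the conjugate (log2 fold change -1.63 ± 0.29, adjusted p = 0.0079). Both were lower in each conjugate liver than in any vehicle liver, with vehicle 1 the lowest vehicle liver for Cyp17a1 and vehicle 5 for Slc22a27. Hao2, a peroxisomal hydroxy acid oxidase, went from 2.68 ± 0.661 to 1.14 ± 1.07 FPKM with overlapping groups (log2 fold change -0.89 ± 0.24, adjusted p = 0.0485), a call lost without vehicle 1, 2, 3, 4 or 5 or conjugate 1, 2, 3 or 4 (adjusted p 0.0507 to 0.137). The share called among 15 genes of growth hormone and IGF signalling was 6.67%, near the 4.34% of all genes tested. Of these 15 genes, 1 fell and 14 did not pass (median 0.16). It was Stat5a, from 5.95 ± 0.869 to 3.83 ± 0.876 FPKM (log2 fold change -0.54 ± 0.13, adjusted p = 0.0399), a call lost without vehicle 2, 3, 4 or 5 or conjugate 2, 3 or 4 (adjusted p 0.0608 to 0.107) and with common-sum scaling.

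Egfr, the receptor for epidermal growth factor, was 19.8, 14, 12.1, 18 and 16.7 FPKM with vehicle and 57.2, 45.1, 70.2, 59.4 and 34.1 FPKM with the conjugate (log2 fold change 1.64 ± 0.22, adjusted p = 0.00213). Each conjugate liver was above each vehicle liver, conjugate 5 again the lowest of its group. The other 5 tested genes of ErbB receptors and their ligands did not pass. Lifr, the receptor of leukaemia inhibitory factor, was 21.7, 24.5, 14.9, 19.5 and 27.8 FPKM with vehicle and 44.4, 55.3, 44.8, 63 and 29 FPKM with the conjugate (log2 fold change 1.07 ± 0.19, adjusted p = 0.00791), with conjugate 5 just above vehicle 5. Abca8a, a membrane transporter gene, went from 14.5 ± 3.04 to 39.4 ± 15.2 FPKM (log2 fold change 1.32 ± 0.21, adjusted p = 0.00407). Serpina4-ps1, annotated as a pseudogene of the serpin cluster, was 3.54, 2.12, 1.13, 2.11 and 2.27 FPKM with vehicle and 23.1, 21, 50.6, 43.2 and 15 FPKM with the conjugate (log2 fold change 3.19 ± 0.49, adjusted p = 0.00352). Adh6-ps1, annotated as a pseudogene of alcohol dehydrogenase, went from 5.7 ± 0.677 to 12.1 ± 3.19 FPKM (log2 fold change 0.94 ± 0.18, adjusted p = 0.0108). Keg1, of the glycine N-acyltransferase-like genes, was 76.3, 33.2, 41.1, 55.4 and 64.6 FPKM with vehicle and 122, 91.3, 108, 94 and 94.1 FPKM with the conjugate (log2 fold change 0.96 ± 0.21, adjusted p = 0.023). Etfbkmt, a methyltransferase of the electron transfer flavoprotein, went from 19.7 ± 2.21 to 39.1 ± 4.0 FPKM (log2 fold change 0.96 ± 0.22, adjusted p = 0.0294). The last calls were lost for Keg1 without vehicle 2, 3 or 4 or conjugate 3 or 4 (adjusted p 0.0522 to 0.0708) and for Etfbkmt without vehicle 1, 2, 3 or 4 or conjugate 2, 3 or 4 (adjusted p 0.0527 to 0.0722). With the erythrocyte term Egfr had 0.88 ± 0.25 and Lifr 0.58 ± 0.28.

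Glutathione transferases and targets of NRF2, a transcription factor of the oxidant response, mostly fell where they passed. Of 37 tested genes of this list 10 fell, 1 rose and 26 did not pass (29.7% called against 4.34% of all genes tested). The median was -0.32, with 30 of the 37 values negative, and it was -0.30 without the pancreas-rich libraries. Gstm3 was 36.8, 38.4, 129, 55.2 and 29.3 FPKM with vehicle and 8.92, 13.3, 6.67, 8.44 and 24.2 FPKM with the conjugate (log2 fold change -2.06 ± 0.41, adjusted p = 0.0136). Gstm2 was 81.8, 84.9, 106, 101 and 93.3 FPKM with vehicle and 50.2, 36.2, 22.3, 24.7 and 54.1 FPKM with the conjugate (log2 fold change -1.37 ± 0.25, adjusted p = 0.00971). Conjugate 5 was the highest conjugate liver for both, still under the lowest vehicle liver, and close paralogs of this family may share reads. Gsta1 was 10.1, 7.16, 34, 16.4 and 11 FPKM with vehicle and 1.62, 0.334, 6.82, 0.219 and 2.29 FPKM with the conjugate (log2 fold change -2.51 ± 0.54, adjusted p = 0.0195). Gsta2 was 42.6, 38.5, 28.1, 34.5 and 34.4 FPKM with vehicle and 9.8, 7.3, 27.2, 6.52 and 20.4 FPKM with the conjugate (log2 fold change -1.45 ± 0.35, adjusted p = 0.033). Conjugate 3 came close to the lowest vehicle liver for both alpha-class genes, and the calls were lost for Gsta1 without vehicle 3 or 4 or conjugate 2 or 4 (adjusted p 0.0552 to 0.0629) and for Gsta2 without vehicle 1, 2, 3, 4 or 5 or conjugate 2 or 4 (adjusted p 0.0553 to 0.0954). Among the smaller falls, Nqo1, the quinone reductase, went from 8.16 ± 1.77 to 4.06 ± 0.921 FPKM (log2 fold change -0.86 ± 0.23, adjusted p = 0.0465), and Nfe2l2, which encodes NRF2 itself, from 33.4 ± 4.24 to 25.5 ± 1.26 FPKM (log2 fold change -0.37 ± 0.10, adjusted p = 0.0485). Gpx4, the peroxidase of lipid hydroperoxides, went from 338 ± 72.1 to 189.6 ± 15.7 FPKM (log2 fold change -0.81 ± 0.13, adjusted p = 0.00514). Leaving out single libraries ended the calls of Nqo1 without vehicle 1, 2, 3, 4 or 5 or conjugate 2, 3 or 4 (adjusted p 0.0555 to 0.13) and Nfe2l2 without vehicle 1, 2, 3 or 4 or conjugate 1, 2, 3, 4 or 5 (adjusted p 0.052 to 0.123). Gstp1, which rose, is also male-biased. With the erythrocyte term Gstm3 had -0.82 ± 0.54 and Gstm2 -0.96 ± 0.40.

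Cytochrome P450 genes of drug metabolism went both ways. Of 34 tested, 4 fell, 2 rose and 28 did not pass (17.6% called against 4.34% of all genes, median 0.09). Cyp3a59 was 12.4, 10.5, 17.5, 12.6 and 9.73 FPKM with vehicle and 6.14, 2.47, 2.52, 1.35 and 4.98 FPKM with the conjugate (log2 fold change -1.68 ± 0.31, adjusted p = 0.00973). Cyp2c39, a low-level member, was 1.85, 2.18, 2.61, 2.96 and 2.05 FPKM with vehicle and 0.892, 0.513, 0.216, 0.374 and 0.771 FPKM with the conjugate (log2 fold change -1.11 ± 0.13, adjusted p = 0.00213), and Cyp2c38 went from 29 ± 3.79 to 13.8 ± 3.48 FPKM (log2 fold change -1.05 ± 0.20, adjusted p = 0.0132). None of these groups overlapped, and reads of neighbouring paralogs may be shared. Besides Cyp2c70, Cyp2c23, an epoxygenase of arachidonic acid, rose from 113 ± 30.7 to 199.8 ± 45.7 FPKM (log2 fold change 0.83 ± 0.19, adjusted p = 0.0297). Of 39 conjugating and related enzymes 3 fell, 1 rose and 35 did not pass (10.3% called against 4.34% of all genes). Ugt1a9, a glucuronosyltransferase that shares its last exons with the other Ugt1a genes, was 15.3, 16, 22.7, 27.8 and 21.1 FPKM with vehicle and 2.88, 6.78, 9.11, 7.54 and 6.8 FPKM with the conjugate (log2 fold change -1.53 ± 0.23, adjusted p = 0.00352). Ephx1, microsomal epoxide hydrolase, was 246, 241, 294, 242 and 237 FPKM with vehicle and 117, 141, 152, 153 and 148 FPKM with the conjugate (log2 fold change -0.82 ± 0.11, adjusted p = 0.00213), with narrow and separate groups. Aox1, aldehyde oxidase, went from 34.3 ± 4.09 to 24 ± 4.18 FPKM and Ces2a, a carboxylesterase, from 57.9 ± 9.53 to 77.4 ± 7.75 FPKM. Calls were lost for Cyp2c23 without vehicle 2, 3 or 4 or conjugate 2, 3 or 4 (adjusted p 0.053 to 0.0892), for Aox1 without vehicle 1, 2, 3 or 4 or conjugate 2, 4 or 5 (adjusted p 0.0572 to 0.132) and for Ces2a without vehicle 1, 2, 3, 4 or 5 or conjugate 1, 2, 3, 4 or 5 (adjusted p 0.0512 to 0.117).

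Genes of amino acid breakdown fell where they passed. Of 45 tested genes of amino acid breakdown 8 fell, 0 rose and 37 did not pass, with a median of -0.22. The share called was 17.8%, against 4.34% of all genes tested. Bhmt, which remethylates homocysteine with betaine, was 1083, 1619.5, 931, 1331 and 1136 FPKM with vehicle and 725, 395, 144, 173 and 632 FPKM with the conjugate (log2 fold change -1.81 ± 0.37, adjusted p = 0.0153). Conjugate 3 and 4 were the lowest livers and conjugate 1 and 5 came nearest to the vehicle livers. Gldc and Amt encode subunits of the glycine cleavage system. Gldc was 36.2, 45.2, 34.1, 27.5 and 35.1 FPKM with vehicle and 14.5, 14, 18.6, 13.7 and 22.3 FPKM with the conjugate (log2 fold change -1.06 ± 0.16, adjusted p = 0.00331), and Amt went from 23.4 ± 2.65 to 15.4 ± 2.52 FPKM (log2 fold change -0.58 ± 0.11, adjusted p = 0.0136). Ddc, aromatic amino acid decarboxylase, was 11.7, 17.3, 13.1, 12 and 13.2 FPKM with vehicle and 6.68, 4.28, 4.37, 3.93 and 8.15 FPKM with the conjugate (log2 fold change -1.19 ± 0.16, adjusted p = 0.00222). The conjugate livers were below the vehicle livers for all 4 genes. Dmgdh, dimethylglycine dehydrogenase downstream of Bhmt, went from 188 ± 28.4 to 132 ± 21.5 FPKM with overlapping groups (log2 fold change -0.51 ± 0.13, adjusted p = 0.0406), a call lost without vehicle 1, 2, 4 or 5 or conjugate 2, 3 or 4 (adjusted p 0.0674 to 0.113). Median-of-ratios scaling and quantile normalization each left 4 calls in the list, and with a fit of only the 2 groups compared the calls of Bhmt (adjusted p = 0.0707) and Amt (adjusted p = 0.0508) were lost.

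Of 16 urea cycle and ammonia handling genes 1 fell and 15 did not pass (6.25% called, near 4.34% over all genes, median -0.10). It was Rhbg, an ammonia channel of the cells around the central vein, at 3.19, 5.08, 4.95, 4.24 and 5.11 FPKM with vehicle and 0.872, 1.0, 0.585, 0.837 and 2.85 FPKM with the conjugate (log2 fold change -1.37 ± 0.21, adjusted p = 0.00352). Conjugate 5 was well above the other conjugate livers. Rhbg was also the single call among 23 pericentral genes (4.35% called, close to the 4.34% of all genes, median 0.03). Of 24 periportal genes 3 fell (Apoa4, Aldh1b1 and Uroc1) and 21 did not pass, with 12.5% called and a median of -0.16. Aldh1b1, a mitochondrial aldehyde dehydrogenase, was 32.7, 40.5, 59.5, 41.4 and 36.9 FPKM with vehicle and 14.2, 12.4, 18.9, 7.93 and 29.7 FPKM with the conjugate (log2 fold change -1.39 ± 0.28, adjusted p = 0.0141). Uroc1, urocanate hydratase of histidine breakdown, went from 168 ± 10.1 to 126 ± 26.6 FPKM (log2 fold change -0.43 ± 0.11, adjusted p = 0.044), a call lost without vehicle 1, 2, 3, 4 or 5 or conjugate 1, 2, 3 or 4 (adjusted p 0.0522 to 0.117).

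Genes of glucose metabolism and the insulin response hardly passed. Of 33 tested, 2 fell, 0 rose and 31 did not pass, a share of 6.06% against 4.34% of all genes, and the median was 0.02. Pcx, pyruvate carboxylase, was 145, 159, 173, 194 and 168 FPKM with vehicle and 67.7, 107, 112, 122 and 157 FPKM with the conjugate (log2 fold change -0.60 ± 0.16, adjusted p = 0.0485), with conjugate 5 inside the vehicle range. Gckr, the regulator of glucokinase, was 93.1, 99.3, 94.8, 92.2 and 93.3 FPKM with vehicle and 79.3, 71.7, 68.1, 72.4 and 87.6 FPKM with the conjugate (log2 fold change -0.32 ± 0.07, adjusted p = 0.0243). Calls were lost for Pcx without vehicle 1, 2, 3, 4 or 5 or conjugate 2, 3 or 4 (adjusted p 0.0554 to 0.131) and for Gckr without vehicle 2, 3 or 4 or conjugate 2, 3 or 4 (adjusted p 0.0547 to 0.0743). Without conjugate 5 the list held 8 called falls.

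Genes of acute-phase proteins and complement went both ways. Of 41 tested genes 5 rose, 4 fell and 32 did not pass (22% called against 4.34% of all genes, median -0.09). C8b, a chain of the membrane attack complex, was 41.7, 35.5, 24.2, 30.9 and 40 FPKM with vehicle and 90.4, 82.8, 132, 89.4 and 70.5 FPKM with the conjugate (log2 fold change 1.40 ± 0.17, adjusted p = 0.00213). C6, another component of that complex, was 32.6, 27.7, 19.7, 27.2 and 27 FPKM with vehicle and 62.4, 51.5, 79.7, 64.3 and 37.7 FPKM with the conjugate (log2 fold change 1.09 ± 0.17, adjusted p = 0.00394). Both were higher in each conjugate liver than in each vehicle liver, with vehicle 3 the lowest. C8a, the other large chain of C8, went from 113 ± 14.5 to 208 ± 68.1 FPKM (log2 fold change 0.83 ± 0.18, adjusted p = 0.0211), a call lost without vehicle 2 or 3 or conjugate 4 (adjusted p 0.0554 to 0.0612). Serpina3k, a serpin made in quantity by liver, was 1936, 1575, 1111, 1420.3 and 1534 FPKM with vehicle and 3195, 2858, 2789, 2655 and 2192 FPKM with the conjugate (log2 fold change 0.87 ± 0.15, adjusted p = 0.00614). With the erythrocyte term C8b had 0.96 ± 0.24.

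The acute-phase genes that fell were Orm2, Saa2 and Lcn2, which varied widely within groups, and Serpina3n, which did not. Orm2, an orosomucoid, was 24.1, 17.6, 89.2, 41.5 and 32.1 FPKM with vehicle and 13.8, 3.79, 16.5, 2.93 and 10.5 FPKM with the conjugate (log2 fold change -2.01 ± 0.50, adjusted p = 0.0389). Saa2, a serum amyloid A gene, was 64, 68.6, 139.7, 111 and 141 FPKM with vehicle and 39.5, 10.2, 88.1, 10 and 18.7 FPKM with the conjugate (log2 fold change -2.03 ± 0.51, adjusted p = 0.0406). Lcn2, lipocalin of the acute phase, was 15.5, 14.5, 81.7, 31.4 and 35.9 FPKM with vehicle and 6.71, 2.83, 23.4, 1.46 and 6.15 FPKM with the conjugate (log2 fold change -2.19 ± 0.59, adjusted p = 0.0478). Conjugate 3 lay inside the vehicle range for Saa2 and Lcn2, and conjugate 2 and 4 were lowest for all 3 genes. With common-sum scaling 1 of the 4 falls was called, and single libraries ended the calls of Orm2 without vehicle 3, 4 or 5 or conjugate 2 or 4 (adjusted p 0.0594 to 0.108), Saa2 without vehicle 2, 3, 4 or 5 or conjugate 2 or 4 (adjusted p 0.0597 to 0.113) and Lcn2 without vehicle 1, 2, 3, 4 or 5 or conjugate 1, 2 or 4 (adjusted p 0.0512 to 0.132). Serpina3n went from 192 ± 13.1 to 141 ± 14.2 FPKM (log2 fold change -0.45 ± 0.10, adjusted p = 0.0191), a call lost without vehicle 3 or 4 or conjugate 2 or 4 (adjusted p 0.0527 to 0.0608). Outside these lists of plasma proteins, of 27 interferon-stimulated genes 1 fell (3.7%, near the 3.17% of all genes), Oasl1, from 6.02 ± 1.02 to 3.16 ± 1.0 FPKM (log2 fold change -0.78 ± 0.20, adjusted p = 0.0442), a call lost without vehicle 2, 3, 4 or 5 or conjugate 1, 2, 3 or 4 (adjusted p 0.0543 to 0.122).

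Of 22 genes of iron handling and BMP signalling to hepcidin, 2 rose, 2 fell and 18 did not pass (median 0.03). The share called was 18.2%, against 4.34% of all genes tested. Smad9, a BMP signal transducer, was 1.08, 0.638, 0.573, 0.604 and 1.42 FPKM with vehicle and 3.01, 3.17, 7.93, 6.26 and 2.47 FPKM with the conjugate (log2 fold change 1.5 ± 0.25, adjusted p = 0.00519). The conjugate livers were all higher, conjugate 3 and 4 most. Bmp6, the ligand made by sinusoidal endothelium, went from 1.11 ± 0.107 to 1.84 ± 0.467 FPKM (log2 fold change 0.41 ± 0.11, adjusted p = 0.045). Hjv, hemojuvelin, the BMP co-receptor, went from 42 ± 5.41 to 30 ± 3.9 FPKM (log2 fold change -0.47 ± 0.10, adjusted p = 0.0222), and Steap3, a ferrireductase gene, from 6.44 ± 0.542 to 4.54 ± 1.22 FPKM (log2 fold change -0.45 ± 0.12, adjusted p = 0.0476). Calls were lost for Bmp6 without vehicle 1, 2, 3, 4 or 5 or conjugate 2, 3, 4 or 5 (adjusted p 0.0528 to 0.124), Hjv without vehicle 2, 3 or 4 or conjugate 2, 3 or 4 (adjusted p 0.0549 to 0.0722) and Steap3 without vehicle 1, 2, 3, 4 or 5 or conjugate 1, 2, 3 or 4 (adjusted p 0.0564 to 0.119).

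The receptors that the conjugate addresses were near the floor in these livers. Glp1r was listed at 0.0179, 0.131, 0.0803, 0.0316 and 0.0878 FPKM with vehicle and at 0.0492, 0.0267, 0.0263, 0.11 and 0.0033 FPKM with the conjugate. Gipr was listed at 0.0073, 0, 0, 0 and 0.0069 FPKM with vehicle and at 0, 0.0091, 0, 0.0149 and 0 FPKM with the conjugate, and both were below the filter and not tested. Wnt1, a name in the Glp1r knockout labels, and Syn1, a synapsin gene that was taken for the Syn of the Gipr knockout label, were listed at 0 in all 10 libraries and at 0.0654 to 0.188 FPKM. Of the glucagon and incretin genes, Gcgr, the glucagon receptor of hepatocytes, was 94.4, 102, 105, 109 and 133 FPKM with vehicle and 54.7, 119, 111, 141 and 133 FPKM with the conjugate (log2 fold change -0.02 ± 0.20, adjusted p = 0.976). Dpp4, the protease that inactivates incretins, went from 27.6 ± 1.59 to 26.5 ± 3.98 FPKM (log2 fold change -0.06 ± 0.09, adjusted p = 0.782). Conjugate 1 was low for Gcgr, and the groups overlapped for both.

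The conjugate livers lay at unequal distances from the vehicle livers. On a scale where the vehicle mean is 0 and the conjugate mean 1, the median position over the 486 called genes was 0.93, 1.03, 1.21, 1.23 and 0.59 for conjugate 1 to 5. Conjugate 5 was the conjugate liver nearest to the vehicle mean for 296 of the 486 genes, conjugate 1 for 102, conjugate 3 for 53, conjugate 2 for 28 and conjugate 4 for 7. The erythrocyte score of conjugate 5 (4.71) was also the nearest to the vehicle livers. Among the vehicle livers, vehicle 1 was nearest to the conjugate mean for 192 genes and vehicle 5 for 142, and vehicle 3 had the lowest median position, -0.23. Vehicle 5, conjugate 4 and conjugate 5 carry higher library numbers in the table than the other 7, a grouping that the labels do not name as a batch. With that split as a term 191 genes rose and 455 fell, and among the 7 libraries of lower numbers, a fit of those alone, 179 rose and 325 fell. The positions describe the same libraries that made the calls.

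**Figure D4:**
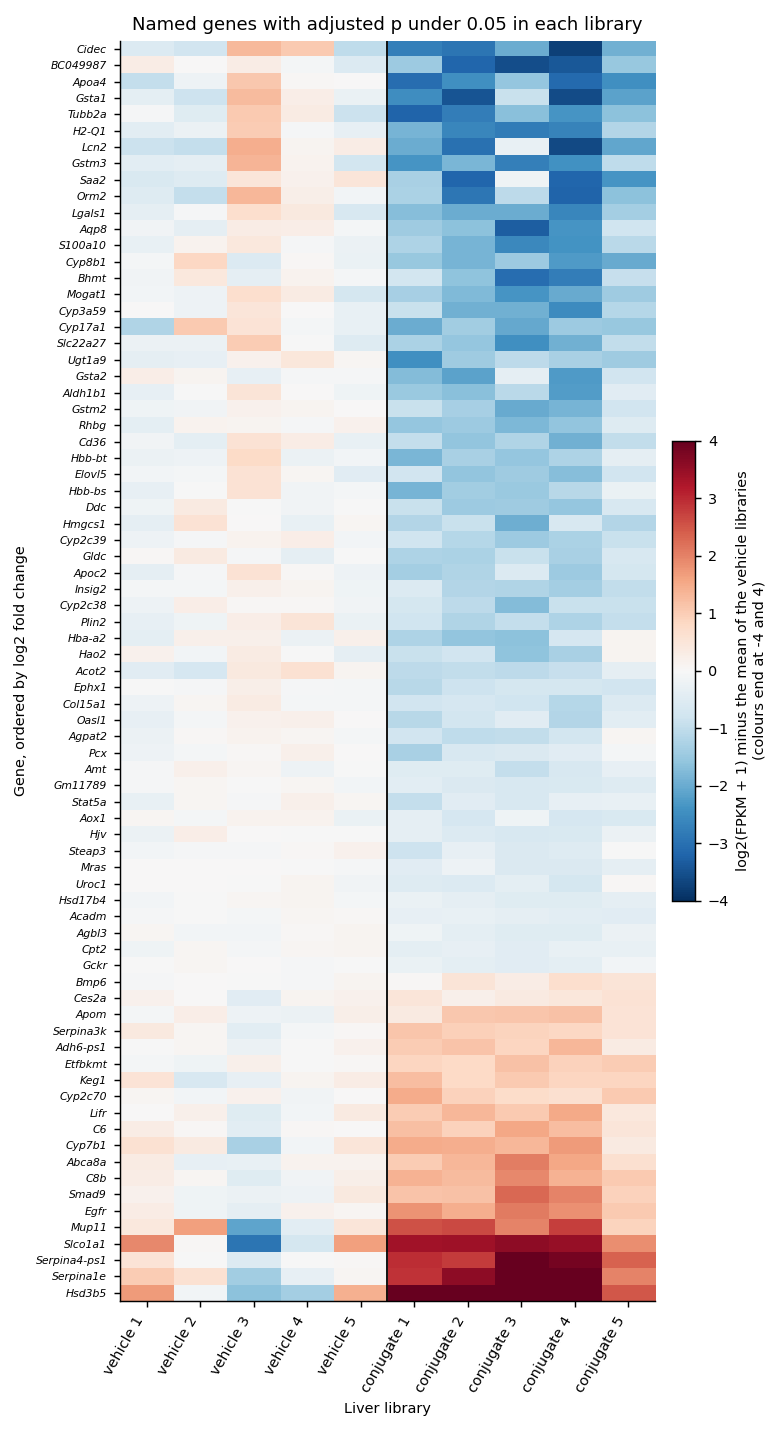
Heat map of 77 named genes that were called, ordered by log2 fold change, in the 10 liver libraries, coloured by log2(FPKM + 1) minus the mean of the 5 vehicle libraries. Conjugate 5 is paler than conjugate 4 for 67 of the 77 genes, and vehicle 3 departs from the vehicle mean away from the conjugate livers for 63.

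The same treatment was given to Glp1r floxed mice, whose liver libraries share none with the Gipr line. Of the 486 genes called in the Gipr line 478 were tested in the Glp1r line, and 469 of these (98.1%) had the same sign there, against 70.9% of the 10640 genes tested in both. In the Glp1r line 1126 of 10858 genes (10.4%) were called, of which 617 rose (5.68%) and 509 fell (4.69%), and 216 genes were called in both lines in the same direction and 0 in opposite directions. These are 44.4% of the calls of the Gipr line and 19.2% of those of the Glp1r line. The called genes had a median absolute log2 fold change of 0.55 in the Gipr line, in which they were chosen, and of 0.33 in the Glp1r line where tested, against 0.13 and 0.10 over all genes tested in both. Depth in the Glp1r line was 31.7 to 35.5 M fragments with the conjugate and 47.5 to 54.8 M fragments with vehicle, so depth and treatment cannot be told apart there.

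A difference between the lines was tested for 11549 genes with an interaction contrast over 30 liver libraries, and 0 were called (smallest adjusted p 0.791). At an unadjusted p under 0.05 there were 660 genes, 5.71%, with limma. Differences below are Gipr line minus Glp1r line. The 5 genes of smallest p were Gm11789 (-0.54 ± 0.12), Cyp2a22 (1.57 ± 0.37), Agbl3 (-0.51 ± 0.12), Mras (-0.53 ± 0.13) and Nolc1 (-0.54 ± 0.13), with adjusted p of 0.791 or more. Of these, Gm11789 was 23.5, 26, 24.2, 25.5 and 22.5 FPKM with vehicle and 17.9, 15.9, 15.2, 15.7 and 16.6 FPKM with the conjugate in the Gipr line, and went from 18.5 ± 0.931 to 18.5 ± 2.32 FPKM in the Glp1r line. Mras, a RAS-related GTPase gene, went from 2.33 ± 0.0581 to 1.46 ± 0.277 FPKM in the Gipr line and from 1.4 ± 0.255 to 1.56 ± 0.242 FPKM in the Glp1r line. Cyp2a22, a female-biased gene, was at most 0.0446 FPKM in the 10 Gipr livers. The called fall of Mras was lost without vehicle 1, 2, 3 or 4 or conjugate 3 or 4 (adjusted p 0.0504 to 0.0853), and that of Agbl3, also a fall in the Gipr line, without vehicle 1, 2, 3, 4 or 5 or conjugate 2, 3 or 4 (adjusted p 0.0553 to 0.108).

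The changes of single genes are set side by side. Hsd3b5 had 3.57 ± 0.77 in the Glp1r line (adjusted p = 0.0126), Apoa4 -2.0 ± 0.40 (0.00962), Tubb2a -2.36 ± 0.35 (0.00296) and Gstm3 -2.28 ± 0.34 (0.00317). Egfr had 1.64 ± 0.22 in the Gipr line and 0.70 ± 0.23 in the Glp1r line, a difference of 0.94 ± 0.33 with an unadjusted p of 0.0083 and an adjusted p of 0.839. S100a10 differed by -0.81 ± 0.32 (adjusted p = 0.839), Cyp8b1 by -0.73 ± 0.34 (adjusted p = 0.856) and Bhmt by -1.02 ± 0.42 (adjusted p = 0.839). None of these differences passed the test.

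**Figure D5:**
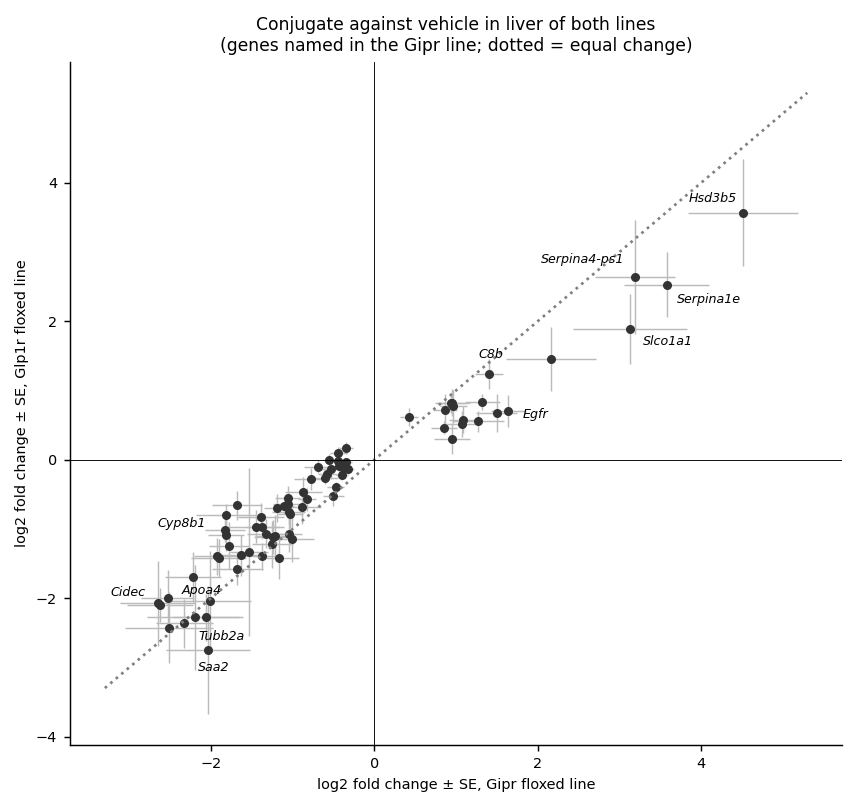
Log2 fold change with standard error of the conjugate against vehicle in liver of the Gipr floxed line (x axis) and of the Glp1r floxed line (y axis), 1 point per gene for 75 called named genes tested in both lines. Of the 75 genes 73 keep their sign in both lines (the other 2 are Agbl3 and Mras, named for the difference between the lines), and 64 lie nearer to 0 on the y axis than on the x axis, on which they were chosen; the dotted line marks equal change.

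The untreated GiprSyn-/- livers are set beside these values without a test of likeness, since both contrasts use the same vehicle libraries. Against the vehicle libraries 161 genes were higher and 999 lower in the knockout (1.44% and 8.92% of 11201). Cidec was 2.11 ± 0.909 FPKM (SD, n = 5) in the knockout, 36.8 ± 27.9 with vehicle and 4.28 ± 2.45 with the conjugate. Hsd3b5 was 113 ± 42 FPKM in the knockout, 4.05 ± 4.56 with vehicle and 90.1 ± 43.8 with the conjugate. Ddc was 14 ± 1.78 FPKM in the knockout (log2 fold change 0.06 ± 0.16, adjusted p = 0.877), 13.5 ± 2.27 with vehicle and 5.48 ± 1.85 with the conjugate. Bhmt was 731 ± 70.2 FPKM in the knockout (-0.72 ± 0.37, adjusted p = 0.257), 1220.1 ± 265 with vehicle and 414 ± 262 with the conjugate. The difference between the conjugate and the knockout was not tested here.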

How the data were processed

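Poly(A) RNA of bulk liver was sequenced from stranded libraries on a NovaSeq X, per the labels. The authors' deposited values are FPKM per gene symbol, made with RSEM per the submitters' processing notes. Aligner, genome build, annotation and the version of RSEM are not stated in the sources used here. FPKM are not counts, so no count test was run, and genes with near-identical copies depend on how the authors' counting split shared reads. Of 54343 symbols 91.1% are in the reference table of gene names; promoters came from RefSeq (GRCm38.p6).

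Genes with FPKM of at least 1 in at least 5 of the 15 Gipr liver libraries were tested on log2(FPKM + 1) with limma 3.58.1 (R 4.3.3), using empirical Bayes with an intensity trend, 1 coefficient for each of 3 groups and no covariates; p-values were adjusted by Benjamini-Hochberg with a threshold of 0.05. The difference between the lines was a contrast over 30 liver libraries. Library measures were compared by exact permutation in Python 3.11.15 (numpy 2.4.6, pandas 2.3.3). Depth was estimated as the library size at which the most values of genes with 1 GENCODE transcript of 1500 to 6000 bases equal 1 fragment (within 5%). The scripts were tested on simulated data. Alternatives covered the pseudocount, filter, scaling, covariates, block and each library left out.

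The genes named are the 15 largest rises and 15 largest falls that were called, had separate groups and reached 5 FPKM in the mean of the higher group, without pancreatic markers and gene models that have no name. A gene that this rule names is not reported here. To these were added up to 4 called members of each list, or up to 2 of smallest p where none was called, 4 receptor and label genes, and the 5 genes of smallest p between the lines. Krt8, Anxa2, Anxa5, Nqo1, Nfe2l2, Gpx4, Gstp1, C8a, Cyp2c23, Dmgdh, Serpina3n, Abcb4, Abcc3 and Abcb1a, also called members of lists, were picked after their values were seen. Members and lists were chosen with earlier results of these data known. No label says how the animals were housed or grouped, and the p-values measure the spread between these samples. No 2 libraries held identical values, and 0 columns lacked a sample.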

Additional observations from a re-analysis of the deposited data

Results flagged for a closer look

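Within the groups of 5 libraries, 23 of 286 sets of values had 1 library far from the other 4, by a gap of more than 0.71 of the group's range. Chance alone gives about 1 in 20. The library was vehicle 3 in 7 sets, conjugate 5 in 6, conjugate 1 in 4, conjugate 3 in 3, conjugate 4 in 2 and vehicle 4 in 1. All values here are log2(FPKM + 1) or means of it.

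Conjugate 5 was the lowest conjugate liver for 3 genes that rose: Hsd3b5 at 4.23 (the others 6.46 to 7.07), Slco1a1 at 5.67 (7.16 to 7.38) and Cyp7b1 at 4.71 (5.68 to 6.06). It was the highest for 3 genes that fell: Agpat2 at 7.02 (5.92 to 6.2), Acot2 at 2.45 (1.78 to 1.89) and Rhbg at 1.94 (0.66 to 1.0). In each of these 6 genes it lay on the side of the vehicle livers.

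Vehicle 3 was the highest vehicle liver for H2-Q1 at 4.32, Ephx1 at 8.21, Hbb-bt at 7.29 and H2-DMb1, a class II chaperone gene, at 3.08. It was the lowest for Ces2a at 5.41, for Cyp2e1, the ethanol-inducible cytochrome of pericentral hepatocytes, at 11.3 (12.1 to 12.4 in the others) and for the hepatocyte score at 10.8. Vehicle 4 was the highest for Nolc1 at 3.43.

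Conjugate 1 was the lowest conjugate liver for Ugt1a9 at 1.95, the clock output gene Tef at 5.86, Gcgr at 5.80 and the hepatocyte score at 11.1. Conjugate 3 was the highest for the chaperone gene Hspa8 at 8.94, for the lipid-associated macrophage score at 3.25 (2.26 to 2.47 in the others) and for the neutrophil score at 1.02. Conjugate 4, which also had the most pancreatic acinar transcripts, was the highest for the insulin gene Ins2 at 5.59 (0 to 1.29 in the others) and for the islet score at 1.99.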

How the results depend on the processing

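The fit as reported called 486 genes (131 higher, 355 lower). Without each library in turn it called 157 to 1042, with 33 to 356 higher and 124 to 686 lower. No filter on low values gave 250 (52 and 198), a common sum of FPKM 306 (76 and 230), a fit of only the 2 groups compared 149 (31 and 118), depth as a term 269 (65 and 204), a 1.5-fold minimum 228 (61 and 167) and array weights 1333 (441 and 892). A common sum without pancreatic and mitochondrial transcripts left 79 higher of 450. The erythrocyte score as a term gave 0 (0 and 0), and so did leaving out the 5 libraries of over 0.5% pancreatic transcripts (vehicle 2 and 5, conjugate 2 and 4, knockout 1), an alternative added after seeing the data; unadjusted p fell under 0.05 for 932 and 1028 genes with limma. The first of these fits has an added term and the second fewer samples. With the erythrocyte term standard errors were a median 1.59 times as large. The pancreatic score as an added term gave 639 calls. The cause of the 0 calls was not tested further. Within 1.5 times the reported total were a pseudocount of 0.1 with 470, a minimum of 5 FPKM with 352, median-of-ratios scaling with 444, quantile normalization with 436, robust empirical Bayes with 483, the library number split as a term with 646, the libraries of lower numbers with 504 and, added later, the fit without the knockout library of high MHC class II score with 551. Of the 78 called genes that the naming rule took, 50 kept the call without each library. All 78 kept their sign, which was largely fixed in advance since they were called on these libraries. Of the 14 picked later, 4 kept the call (Abcb4, Abcc3, Anxa5 and Gpx4). The sign changed in 1 other fit, for Hba-a2 at 0.18 with the erythrocyte term. Hba-a2 is itself a member of that score, so the term takes out part of its own change.

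With the replicate number as a block 378 genes were called (95 higher, 283 lower) and 6 of the 78 named genes lost the call. Same-numbered vehicle and conjugate libraries correlated at -0.37 to 0.45 in their deviations from the group means, and other such pairs at -0.64 to 0.75. Of the 10 libraries 4 correlated best with their own number. These values do not settle whether the numbers pair the libraries. The difference between the lines gave 0 calls as reported and in 8 alternatives (417 to 1408 genes at an unadjusted p under 0.05, limma). FPKM keep no error of counting, so the precision of single low values is unknown.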

Other observations

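Several gene groups of the same livers had no called member in the fit as reported. Of 14 tested cell cycle genes 0 were called, with 13 negative values and a median log2 fold change of -0.39. The groups did not overlap for 5 of the 14, against 4.93% of all genes tested. With median-of-ratios scaling 2 of them were called lower, and with quantile normalization also 2. In that list Cdkn1a, the p21 inhibitor, went from 2.52 ± 1.66 to 0.643 ± 0.272 FPKM (log2 fold change -1.01 ± 0.28, adjusted p = 0.0568) and Mcm2, a helicase subunit of DNA replication, from 2.3 ± 1.05 to 0.938 ± 0.251 FPKM (log2 fold change -0.73 ± 0.21, adjusted p = 0.0677). Of 18 clock genes 14 had positive values (median 0.21), and Ciart, a clock repressor, went from 9.4 ± 0.867 to 12.2 ± 2.53 FPKM (log2 fold change 0.33 ± 0.12, adjusted p = 0.144). The sources used here give no time of collection. Of 21 genes of the unfolded protein response 0 were called (median -0.01), with Xbp1, a transcription factor of that response, at 77.2 ± 11.7 to 102 ± 15.7 FPKM (log2 fold change 0.40 ± 0.15, adjusted p = 0.133). Heat shock chaperones (median -0.02 over 12) and genes of branched-chain amino acid breakdown (median -0.16 over 21) also had 0 calls.

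Among markers of other cells, lipid-associated macrophage genes had 9 of 10 values negative and 0 calls (median -0.42). Trem2, a receptor of these cells, stood at 0.852, 1.05, 3.67, 1.85 and 1.52 FPKM with vehicle and at 0.614, 0.404, 1.55, 0.721 and 0.723 FPKM with the conjugate (log2 fold change -0.58 ± 0.22, adjusted p = 0.149). Conjugate 3 was the highest conjugate liver. Spp1, osteopontin, went from 36 ± 16.8 to 21.4 ± 4.37 FPKM (log2 fold change -0.64 ± 0.22, adjusted p = 0.111). Kupffer cell markers had a median of 0.03 over 12 genes and stellate cell and fibroblast markers one of -0.05 over 12, both with 0 calls. Col1a1, the main fibrillar collagen, went from 2.43 ± 0.964 to 0.987 ± 0.56 FPKM (log2 fold change -0.79 ± 0.23, adjusted p = 0.0673). Of 11 markers of T and NK cells 10 were under 1 FPKM in all 10 libraries. Mitochondrially encoded transcripts were 13.9, 11, 12.8, 11.5 and 9.73% of the summed FPKM with vehicle and 13.1, 10.8, 7.98, 7.57 and 9.23% with the conjugate (exact permutation p = 0.127, adjusted over 20 measures 0.529). None of these marker lists had a called member in the fit as reported.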
